A study of Zea mays with 18 samples.

Results

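In maize quiescent centre RNA, 329 genes were at least 2 times higher in each of 3 libraries than in any of the other 15 libraries of the series. The 3 libraries were S_12h replicate 1, S_12h replicate 2 and A_12h replicate 3. A gene was taken when its row began with Zm00001d, when its lowest level in these 3 libraries was at least 5 CPM (counts per 1000000 counts in the library), and when that lowest level was at least 2 times its highest level in the other 15. The 329 genes are 1.15% of the 28675 rows with this prefix, out of 28724 rows in all. They were chosen on the measured levels of all 18 libraries, so their height in these 3 libraries describes the choice and is given with no test.

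The study placed roots of maize seedlings 5 days old in liquid medium and sequenced total RNA of the isolated quiescent centre. Its 6 groups of 3 libraries were S_12h, A_12h and WT_12h, taken after 12 h under hypoxia at 4% oxygen, and S_0h, A_0h and WT_0h, taken at 0 h under normoxia. Line S (Pgb1.1S) overexpresses the phytoglobin gene ZmPgb1.1, line A (Pgb1.1A) has it down-regulated, and WT is the wild type without either change. The 12 h libraries are all hypoxic and the 0 h libraries all normoxic, so the effects of low oxygen and of time cannot be told apart. Not given in the sources used here are the promoters of the transgenes, the number of independent lines and the pooling of seedlings. Nothing says whether libraries with the same label were made from separate plants. The p-values therefore measure the spread among these libraries alone, and that spread may be technical.

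The quiescent centre is a small group of rarely dividing cells in the root tip that keeps the stem cells around it undifferentiated. Phytoglobins are plant hemoglobins that bind oxygen tightly and convert nitric oxide to nitrate. Low oxygen limits respiration in root tips, and maize roots then turn to fermentation and to sugar breakdown for ATP. Nitric oxide made under low oxygen also acts as a signal, which links phytoglobin levels to the way plant cells sense the stress.

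Each gene is called by its ID. None of the 329 IDs (0), and none of the 28724 IDs of the deposited table, matched the 49888 genes of the maize name table used here, which belongs to the assembly Zm-B73-REFERENCE-NAM-5.0. No name, function, position or sequence is therefore attached to a gene, and lists of pathway genes and of cell type markers could not be counted. For the same reason ZmPgb1.1 itself and the markers of the quiescent centre were not checked.

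The 3 libraries carry the labels of 2 groups, and the labels do not describe the pattern. The remaining library labelled S_12h (replicate 3) and the other A_12h libraries (replicates 1 and 2) were among the 15 low libraries for all 329 genes. The 3 high libraries, S_12h replicates 1 and 2 and A_12h replicate 3, were grouped with the data already seen. Their likeness is therefore a description and not a separate check. Spearman correlations of log2 CPM among them were 0.9925 to 0.9932 over all 25538 expressed rows. Over the 25209 expressed rows that are not among the 329, these correlations were 0.9923 to 0.9929. Leaving out the 329 rows thus hardly changed them. The highest correlation of any of the 3 with another library was 0.9813 over these 25209 rows. The lowest correlation within a labelled group was 0.9537 over the same rows. In the series, 6 libraries, 1 of each group, had both of their nearest libraries in another group, and A_12h replicate 3 and S_12h replicate 3 are among them. No 2 libraries were repeat counts of 1 library. The lowest chi-square statistic per gene over all 153 pairs of libraries was 3.89, where about 1 is the value for repeats. That lowest pair was S_12h replicate 2 and A_12h replicate 3, which carry different labels, and S_12h replicates 1 and 2 had 4.61. Total counts were 65097155 in S_12h replicate 1, 54133682 in S_12h replicate 2 and 35441975 in A_12h replicate 3, against 48130771 to 89759585 in the other 15. In what follows, "the 3 libraries" are these 3, and a group name means all the libraries that carry that label.

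Together the 329 genes took 3.54% of all counts in S_12h replicate 1, 3.55% in S_12h replicate 2 and 3.57% in A_12h replicate 3. In the other 15 libraries they took 0.428 to 0.734%. The share was thus alike in the 3 libraries and several times lower in every other one, including S_12h replicate 3 at 0.552%, A_12h replicate 1 at 0.730% and A_12h replicate 2 at 0.734%. The median gene stood at 38.99 CPM in S_12h replicate 1, 40.4 CPM in S_12h replicate 2 and 39.6 CPM in A_12h replicate 3, against medians of 3.68 to 8.39 CPM in the other 15. Fewer cells that express these genes and less RNA of them per cell cannot be told apart in such bulk samples.

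**Figure D1:**
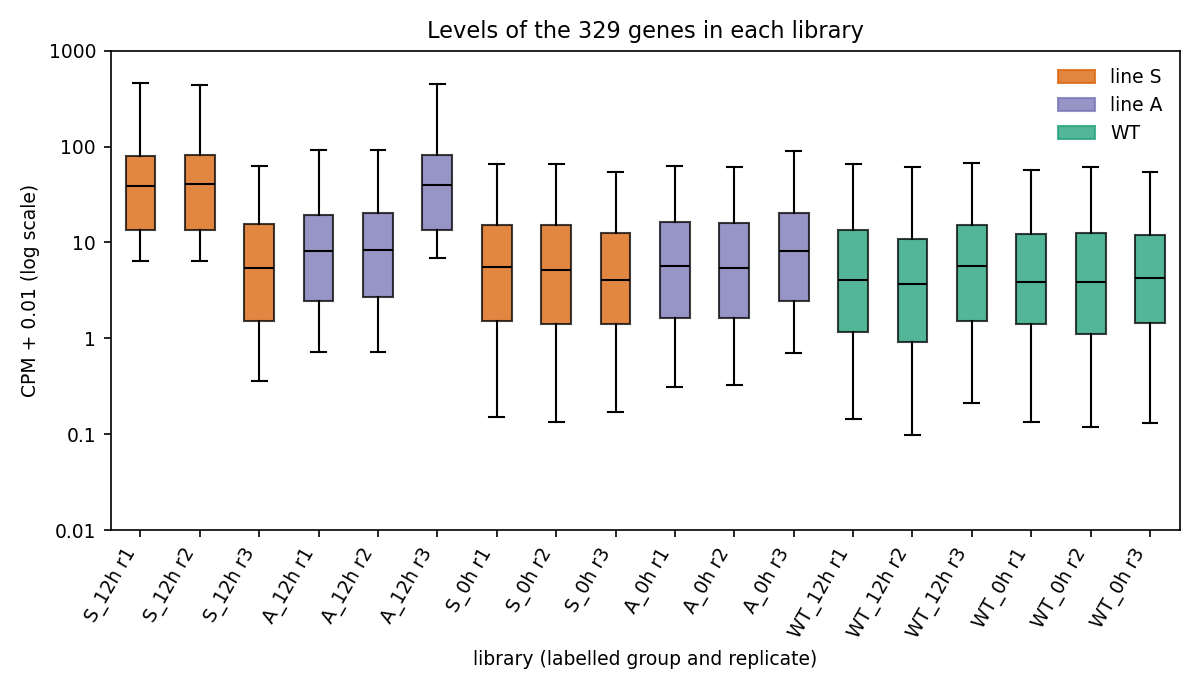
Levels of the 329 genes in each of the 18 libraries, as CPM + 0.01 on a log axis (boxes span the quartiles, lines inside are medians, whiskers reach the 5th and 95th percentile of genes). Medians were 38.99 to 40.4 CPM in S_12h r1, S_12h r2 and A_12h r3 and 3.68 to 8.39 CPM elsewhere.

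Within the 3 libraries the genes varied little. The highest of the 3 values divided by the lowest had a median of 1.08 over the 329 genes, which equals the median of 1.08 over the 13764 other Zm00001d genes whose lowest level in the 3 libraries was at least 5 CPM. No gene reached 1.5 (0 of 329), and the widest spread was 1.47. The library labelled A_12h stood at the same height as those labelled S_12h: A_12h replicate 3 divided by the mean of S_12h replicates 1 and 2 had a median of 1.01 and ranged from 0.813 to 1.34. It lay above both S_12h libraries for 132 genes and below both for 85.

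The ratio of the lowest of the 3 libraries to the highest of the other 15 ran from 2.00 to 103, with a median of 2.99. It was under 3 for 165 genes, from 3 to under 5 for 90, from 5 to under 10 for 40, from 10 to under 20 for 22 and 20 or more for 12. The set is therefore mostly genes that were also expressed elsewhere, with a few that were near 0 outside the 3 libraries. The median of the other 15 libraries was under 1 CPM for 54 genes and the highest of the 15 was under 1 CPM for 11. No gene (0) was at 3 counts or fewer in all 15, and 21 had 0 counts in at least 1 of them. Across the 329 genes, the mean level in the 3 libraries and the median level in the other 15 had a Spearman correlation of 0.795. Genes share the libraries and their depth and are not independent replicates, so this is a description.

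The largest ratio belonged to Zm00001d001976.RefGen_V4. It measured 8.66 CPM in S_12h replicate 1, 9.61 CPM in S_12h replicate 2 and 9.99 CPM in A_12h replicate 3, against a lowest and a median of 0 and a highest of 0.0844 CPM in the other 15. Its counts were 564, 520 and 354 in the 3 libraries, while the highest of the 15 was 6 counts, in A_12h replicate 1, and the next was 2 counts, in several libraries. The transcript was thus at or near the limit of detection outside the 3 libraries, and its ratio of 103 rests on those 6 counts.

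Zm00001d009084.RefGen_V4 was more than 10 times as abundant. Its levels were 120.1 CPM in S_12h replicate 1, 124 CPM in S_12h replicate 2 and 128 CPM in A_12h replicate 3, against a lowest of 0.121, a median of 0.338 and a highest of 1.44 CPM in the other 15. The ratio was 83.5. Zm00001d044156.RefGen_V4, the third by ratio, measured 380.4, 378 and 367 CPM in the same 3 libraries, against 0 to 6.48 CPM in the other 15. All 5 of the other line A libraries (3.74 to 6.48 CPM) and S_12h replicate 3 (5.63 CPM) lay above the 9 libraries of S_0h, WT_12h and WT_0h, which held 0 to 0.423 CPM. This gene therefore had a second, far smaller step among the 15 libraries that the rule did not ask for.

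By ratio, Zm00001d011644.RefGen_V4 and Zm00001d008223.RefGen_V4 came next. Zm00001d011644.RefGen_V4 measured 43.2, 41.8 and 39.5 CPM against 0 to 0.903 CPM in the other 15, and Zm00001d008223.RefGen_V4 measured 89.5, 87.9 and 94.0 CPM against 0.0499 to 2.02 CPM. Their ratios were 43.7 and 43.6. Zm00001d021168.RefGen_V4 (ratio 36.4), Zm00001d016396.RefGen_V4 (29.9) and Zm00001d026041.RefGen_V4 (28.4) were at 11.2 to 24.5 CPM in the 3 libraries and at no more than 0.774 CPM in any other. The last of these, Zm00001d026041.RefGen_V4, had 0 CPM in 10 of the 15. Zm00001d039183.RefGen_V4 and Zm00001d000196.RefGen_V4 closed the 10 largest ratios, at 28.2 and 28.0, with at least 356 CPM in the 3 libraries. They were expressed throughout, at 3.41 to 12.6 and at 3.06 to 14.7 CPM in the other 15.

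Abundance was concentrated in a few genes. The 10 most abundant of the 329 took 34.6, 34.5 and 34.6% of the set's counts in S_12h replicate 1, S_12h replicate 2 and A_12h replicate 3. Zm00001d021788.RefGen_V4, the most abundant, measured 2941, 2915 and 2945 CPM in these libraries, against a lowest of 124, a median of 170.3 and a highest of 287 CPM in the other 15. Its ratio was 10.1. By label, S_12h held 2941, 2915 and 287 CPM, and A_12h held 181, 188 and 2945 CPM, so that within both hypoxic transgenic groups the libraries of 1 label lay on both sides of the gap. Labelled means were 2048 ± 1525 CPM in S_12h and 160 ± 18.5 CPM in S_0h (SD, n = 3 each), and the SD of S_12h is set by replicate 3.

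Zm00001d008733.RefGen_V4 measured 2307, 2315 and 2351 CPM in the 3 libraries, against 84.2 to 142 CPM (median 112) in the other 15, a ratio of 16.3. Zm00001d053960.RefGen_V4 measured 1245, 1273 and 1298 CPM, against 37.2 to 65.7 CPM (median 58.5), a ratio of 18.96. These 3 most abundant genes were clearly expressed in all 18 libraries. The next 3 had smaller ratios: 2.65 for Zm00001d024839.RefGen_V4, 4.18 for Zm00001d043762.RefGen_V4 and 2.05 for Zm00001d033108.RefGen_V4.

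Zm00001d033108.RefGen_V4 was flat outside the 3 libraries, where it held 846 to 858 CPM, since the other 15 spanned only 350.4 to 413 CPM. Zm00001d024839.RefGen_V4 was uneven there. It held 1036 to 1074 CPM in the 3 libraries, while A_12h replicates 1 and 2 held 374 and 391 CPM, A_0h replicate 3 held 369 CPM and the remaining 12 libraries 39.0 to 170 CPM. The rest of the 10 most abundant genes were Zm00001d009243.RefGen_V4, Zm00001d008846.RefGen_V4, Zm00001d017467.RefGen_V4 and Zm00001d044157.RefGen_V4. They held 669.8 to 770 CPM in the 3 libraries and had ratios of 2.85 to 6.13.

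**Figure D2:**
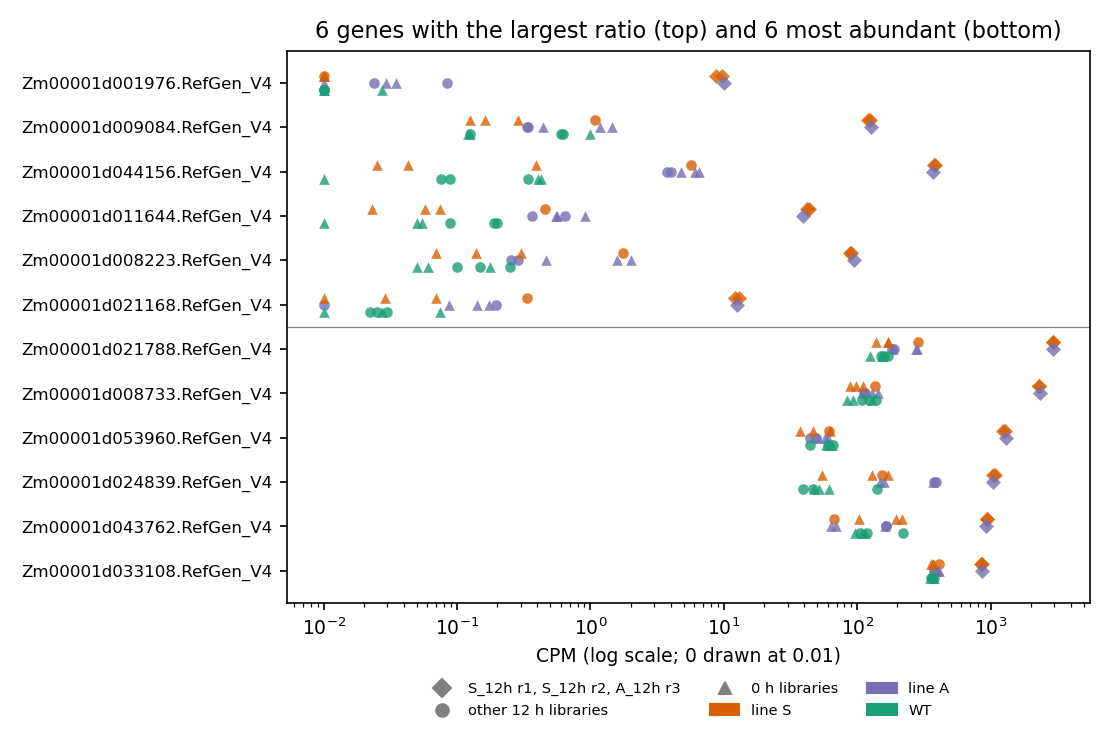
CPM on a log axis (0 drawn at 0.01) of the 6 genes with the largest ratio and the 6 most abundant ones, 1 point per library. Diamonds (S_12h r1, S_12h r2, A_12h r3) lie at 8.66 CPM or more in every row and right of all circles (other 12 h libraries) and triangles (0 h libraries).

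The threshold cuts a continuous range. Just inside it, Zm00001d018031.RefGen_V4 (81.4, 88.4 and 90.1 CPM in the 3 libraries, at most 40.4 CPM elsewhere), Zm00001d005897.RefGen_V4 (16.8, 18.2 and 18.1 CPM, at most 8.42) and Zm00001d012228.RefGen_V4 (38.99, 39.6 and 39.4 CPM, at most 19.5) had ratios of 2.01, 2.00 and 2.00. Just outside, Zm00001d053706.RefGen_V4 (21.9 to 23.1 CPM, at most 10.95 elsewhere), Zm00001d005002.RefGen_V4 (82.5 to 87.7, at most 41.5) and Zm00001d021647.RefGen_V4 (370.5 to 386, at most 186.5) had ratios of 1.997, 1.988 and 1.986. On the level, Zm00001d045369.RefGen_V4 and Zm00001d016896.RefGen_V4 were the nearest above 5 CPM, with lowest values of 5.17 and 5.22 CPM. Zm00001d043257.RefGen_V4 and Zm00001d053133.RefGen_V4 (4.66 and 4.52 CPM) were left out by it. A ratio of at least 1.5 gave 629 genes and one of at least 4 gave 106. With the same thresholds turned round, 16 genes had at least 5 CPM in each of the other 15 libraries and at most 0.5 times their lowest value in each of the 3.

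**Figure D3:**
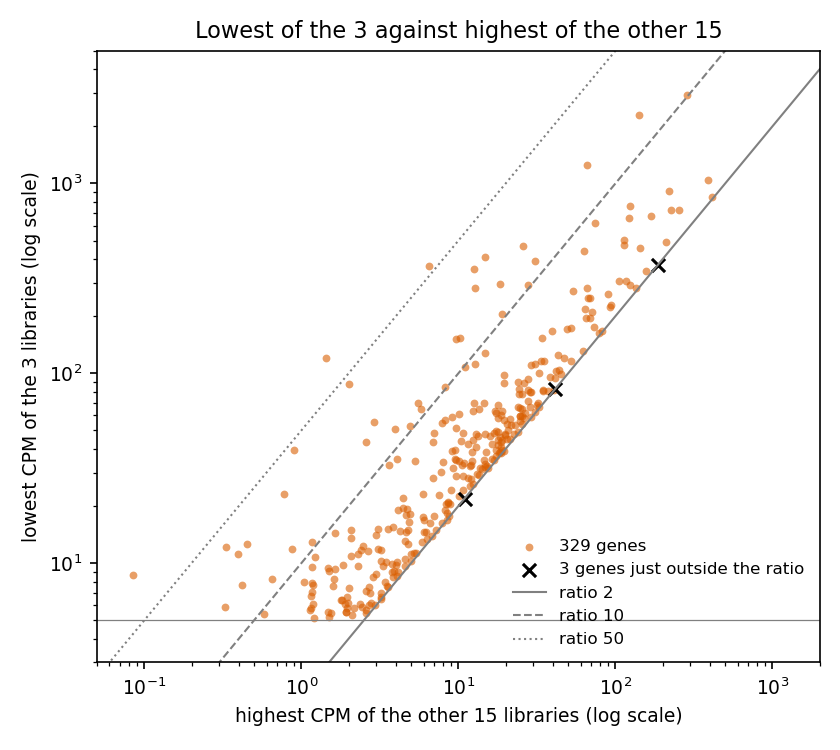
Lowest CPM of the 3 libraries against highest CPM of the other 15, both on log axes, for the 329 genes (points) and the 3 genes just outside the ratio (crosses), with lines at ratios of 2, 10 and 50 and at 5 CPM. Most points lie between the lines for 2 and 10, with a median ratio of 2.99.

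Some of the 329 genes carried neighbouring ID numbers. In all, 25 genes (7.60%) differed by 1 from another of the set, in 11 pairs and 1 run of 3. Whether this share is larger than in other sets was not tested, and the genes named here were chosen after their values were seen. Zm00001d044156.RefGen_V4 and Zm00001d044157.RefGen_V4 are such a pair. The second held 675, 669.8 and 673 CPM in the 3 libraries and 27.2 to 167 CPM elsewhere, with its highest other value in WT_12h replicate 3, where the first held 0.0753 CPM. Their levels among the other 15 libraries thus did not run together.

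The pair Zm00001d038383.RefGen_V4 and Zm00001d038384.RefGen_V4 did share its lows. In WT_12h replicates 1 and 2 and WT_0h replicate 2 the first held 0.134, 0.0742 and 0.0407 CPM and the second 0, 0 and 0.0271 CPM. In every library but these the first held at least 7.73 CPM and the second at least 0.789 CPM. The run of 3 was Zm00001d011418.RefGen_V4, Zm00001d011419.RefGen_V4 and Zm00001d011420.RefGen_V4, at 67.8 to 68.3, 62.6 to 67.3 and 42.6 to 43.1 CPM in the 3 libraries. No source used here gives how reads that map to several places were counted, so genes that are near-identical copies of a neighbour are uncertain.

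The highest of the other 15 libraries is the value the rule set its ratio against, so where it fell is given as a description of the set. It fell in A_12h replicate 2 for 60 genes (18.2%), in A_12h replicate 1 for 57 (17.3%), in A_0h replicate 3 for 50 (15.2%) and in S_12h replicate 3 for 33 (10.03%). Over the 13764 other Zm00001d genes at 5 CPM or more in the 3 libraries, the shares were 9.10, 8.77, 10.3 and 8.20%. A_0h replicate 2 was highest for 29 genes (8.81%, against 9.10% of the other genes) and A_0h replicate 1 for 26 (7.90%, against 9.24%). Each of the remaining 9 libraries was highest for 2 to 14. The first 3 of these libraries also had the highest medians of the 15, at 8.39, 8.06 and 8.14 CPM, and are each other's nearest libraries across the table, although they carry 2 labels. A_0h replicates 1 and 2, with medians of 5.63 and 5.40 CPM, stood close to WT_12h replicate 3 at 5.63 CPM and S_0h replicate 1 at 5.55 CPM.

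**Figure D4:**
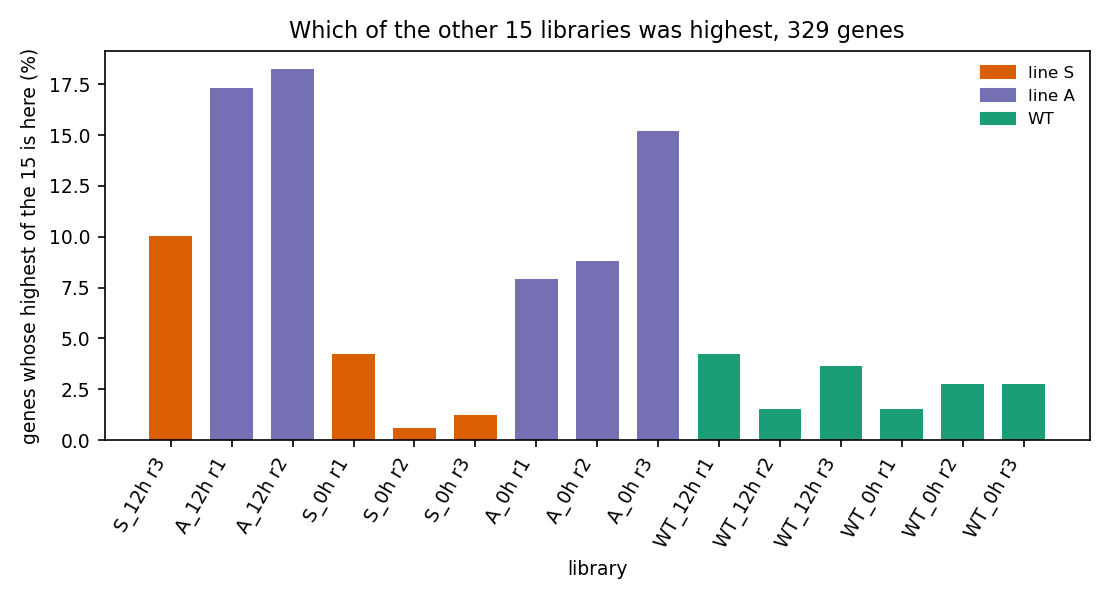
Share of the 329 genes (percent) whose highest level among the other 15 libraries was in the library shown, with bars coloured by line. A_12h r2, A_12h r1 and A_0h r3 held 18.2, 17.3 and 15.2% of the genes and S_12h r3 10.03%. Over the 13764 other genes at 5 CPM or more in the 3 libraries, not drawn, these shares were 9.10, 8.77, 10.3 and 8.20%.

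Differences between labelled groups were tested over 20945 genes with edgeR's quasi-likelihood test, and a gene was called at a Benjamini-Hochberg adjusted p under 0.05. All 329 genes passed the low-count filter, and all but Zm00001d001976.RefGen_V4 also passed it without the 3 libraries. The 3 contrasts A_0h against WT_0h, S_0h against WT_0h and WT_12h against WT_0h hold none of the 3 libraries. They share the WT_0h libraries and are given side by side. Their libraries were among the 15 whose highest value the rule used, so these tests are not fully independent of the choice of genes.

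In A_0h against WT_0h, 2 of the 329 genes were called (0.608%), both higher in A_0h, where 3.32% of all genes tested were called, 1.5% higher and 1.82% lower. The low called share of the set is not read as a result about these genes. Their spread in this fit comes from all 18 libraries. The rule widens it, since S_12h and A_12h each hold high and low libraries. Without the 3 libraries, 18% of the tested genes of the set and 10.6% of all genes were called, as given below. Of the 329, 258 (78.4%) had a log2 fold change above 0, against 53.8% of all genes, and the median log2 fold change was 0.55 against 0.03. The lean was smaller without A_0h replicate 3, the A_0h library nearest to A_12h: 64.7% of the genes were above 0, against 50.7% of all genes, and the median was 0.28 against 0.01. In S_0h against WT_0h 62.9% of the 329 were above 0, against 49.2% of all genes. The lowest A_0h library lay above the highest WT_0h library for 124 genes (37.7%), against 15.8% of all genes tested, and the groups separated the other way for 10 genes (3.04%), against 9.95%.

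The genes called were Zm00001d011420.RefGen_V4 and Zm00001d002436.RefGen_V4. Zm00001d011420.RefGen_V4 measured 10.2, 10.7 and 5.25 CPM in A_0h replicates 1, 2 and 3, against 0.649, 1.099 and 0.816 CPM in WT_0h (log2 fold change 3.32, SE 0.82, edgeR adjusted p = 0.0411). Zm00001d002436.RefGen_V4 measured 17.5, 17.9 and 14.8 CPM in A_0h, against 3.05, 1.52 and 2.81 CPM in WT_0h (log2 fold change 2.73, SE 0.71, edgeR adjusted p = 0.0492). Every A_0h library lay above every WT_0h library for both genes. Both calls were lost without A_0h replicate 1 or 2 or without any 1 of the WT_0h libraries, where edgeR adjusted p ran from 0.103 to 0.150. They were also lost with no low-count filter (edgeR adjusted p = 0.0539 and 0.0633). With the replicate number as a block they were lost as well (edgeR adjusted p = 0.0845 and 0.0765).

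In S_0h against WT_0h and in WT_12h against WT_0h, 0 of the 329 genes were called by edgeR, and 0% of all genes tested were. At an unadjusted p under 0.05 there were 2 and 1 of the 329 (0.608 and 0.304%), where 1.69 and 1.81% of all genes passed. These shares rest on the spread over all 18 libraries, which the rule widens for the set. Without the 3 libraries they were 5.18 and 3.96%, where 2.26 and 2.85% of all genes passed. DESeq2 called 0 of the 329 in both contrasts, and 9 and 5 of all genes. The median log2 fold change of the set was 0.13 for S_0h against WT_0h and 0.08 for WT_12h against WT_0h, against 0 over all genes. The groups did not overlap upward for 20 genes (6.08%) in S_0h against WT_0h, where 6.03% of all genes did so, and for 10 genes (3.04%) in WT_12h against WT_0h, where 5.02% did. In both contrasts 1 library of each group is nearest to another group.

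The fit takes 1 spread per gene from all 18 libraries, and the 3 libraries lie far from the others of their label for these genes. An alternative chosen after seeing the data left the 3 libraries out and refitted the other 15, where 328 of the 329 genes were among the 21747 tested. In A_0h against WT_0h, 59 of the 328 genes were then called by edgeR (17.99%), 55 higher and 4 lower in A_0h, where 10.6% of all genes were called, 5.67% higher and 4.95% lower. In A_12h (replicates 1 and 2) against WT_12h, 41 were called (12.5%), 39 higher and 2 lower in A_12h, where 6.67% of all genes were called, 3.98% higher and 2.69% lower. Without the 3 libraries, 0 of the 328 genes and 0% of all genes were called in A_12h against A_0h, S_0h against WT_0h and WT_12h against WT_0h, with 34, 17 and 13 of the 328 (10.4, 5.18 and 3.96%) at an unadjusted p under 0.05, where 20.3, 2.26 and 2.85% of all genes passed. In this fit the share called higher in line A was thus above that of all genes at both times, by counts alone. The difference between the shares was not tested, and the rule used the highest value of these same 15 libraries. A_0h replicate 3, in this fit, is nearest to A_12h replicates 2 and 1, so the 2 times are not separate observations. With all 18 libraries the called share in A_0h against WT_0h was 0.608% of the set and 3.32% of all genes.

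**Figure D5:**
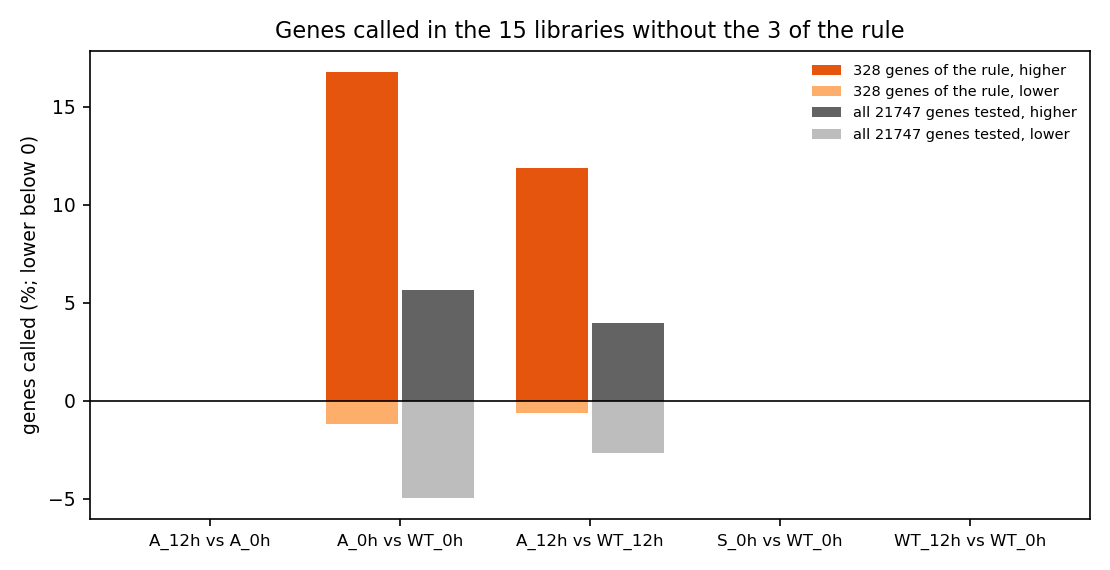
Percent of genes called by edgeR in the 15 libraries without S_12h r1, S_12h r2 and A_12h r3, higher above 0 and lower below it, for the 328 genes of the rule that were tested and for all 21747 genes. In A_0h against WT_0h 16.8% of the 328 were higher and 1.22% lower, and in A_12h against WT_12h 11.9% and 0.610%; no bar stands in the other 3 contrasts.

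The gene of the set with the lowest p in both line A contrasts without the 3 libraries was Zm00001d006753.RefGen_V4, at 48.5 to 48.95 CPM in the 3 libraries. It and the other genes named from the fit without the 3 libraries were chosen after their values were seen. It measured 15.6 and 16.7 CPM in A_12h replicates 1 and 2, against 3.38, 2.76 and 4.37 CPM in WT_12h (log2 fold change 2.18, SE 0.23, edgeR adjusted p = 0.00157). It measured 9.40, 10.9 and 15.7 CPM in A_0h, against 3.58, 3.64 and 3.25 CPM in WT_0h (log2 fold change 1.74, SE 0.22, edgeR adjusted p = 0.00224). At both times the line A libraries lay above all WT libraries.

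Next by p were Zm00001d005208.RefGen_V4 at 0 h and Zm00001d018414.RefGen_V4 at 12 h. Zm00001d005208.RefGen_V4 measured 8.73, 8.91 and 9.12 CPM in A_0h, against 3.62, 4.90 and 3.44 CPM in WT_0h (log2 fold change 1.13, SE 0.15, edgeR adjusted p = 0.00298). Zm00001d018414.RefGen_V4 measured 14.4 and 14.6 CPM in A_12h replicates 1 and 2, against 3.90, 3.59 and 4.18 CPM in WT_12h (log2 fold change 1.87, SE 0.22, edgeR adjusted p = 0.00274). Neither pair of groups overlapped.

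A few genes ran the other way among the 15. Zm00001d023299.RefGen_V4 and Zm00001d025310.RefGen_V4 were the 2 genes called lower in A_12h than in WT_12h without the 3 libraries, and both were also called lower in A_0h than in WT_0h. Zm00001d023299.RefGen_V4 held 98.1 to 106 CPM in the 3 libraries, 7.78 and 8.63 CPM in A_12h replicates 1 and 2 and 17.5, 18.1 and 13.9 CPM in WT_12h (log2 fold change -1.04, SE 0.18, edgeR adjusted p = 0.0114). The other genes called lower in A_0h were Zm00001d010736.RefGen_V4 (log2 fold change -0.43, SE 0.08, edgeR adjusted p = 0.0126) and Zm00001d003015.RefGen_V4 (log2 fold change -1.20, SE 0.33, edgeR adjusted p = 0.0393). A height in A_12h replicate 3 thus did not go with a height in the other line A libraries for every gene.

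Single libraries among the 15 stood out for some genes. The gap in CPM between the highest and the second highest of the 15 was largest for Zm00001d024839.RefGen_V4, given above. There, A_12h replicate 2 held 391 CPM, A_12h replicate 1 held 374 CPM and A_0h replicate 3 held 369 CPM. No single library thus stood apart for this gene, and a gap in CPM favours abundant genes. Zm00001d053612.RefGen_V4 held 269.7 to 272 CPM in the 3 libraries, against 53.7 CPM in WT_0h replicate 3 and at most 43.5 CPM in any other. Zm00001d024210.RefGen_V4 held 65.0 to 67.8 CPM in the 3 libraries, against 13.5 CPM in WT_12h replicate 1 and 1.14 and 0.0251 CPM in WT_12h replicates 2 and 3. WT_12h replicate 1 thus set its ratio, which was 4.81 with that library and 9.41 without it.

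The 4 contrasts that hold at least 1 of the 3 libraries are given as a description only, since the rule asked for a height in these libraries. All 329 genes had a log2 fold change above 0 in each. The rule fixed this direction in the S_12h contrasts and favoured it in the A_12h contrasts, which hold 1 high library. In S_12h against S_0h, 156 of the 329 genes were called by edgeR, all higher, where 8.7% of all genes were called, 4.78% higher and 3.92% lower. In S_12h against WT_12h 191 were called, all higher, where 11.3% of all genes were called, 6.21% higher and 5.11% lower. In A_12h against WT_12h 53 were called, all higher, where 6.47% of all genes were called, 3.88% higher and 2.59% lower. In A_12h against A_0h 0 of the 329 genes and 0% of all genes were called by edgeR. At an unadjusted p under 0.05 there were 139 of the 329 (42.2%), where 19.2% of all genes passed, and DESeq2 called 2 of the 329 (0.608%), where it called 0.754% of all genes.

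These counts turned on which labelled library was in the fit. Without S_12h replicate 3, which was low, 309 of the 329 genes were called in S_12h against S_0h and 307 in S_12h against WT_12h, where 28.6 and 28.2% of all genes were called. Without S_12h replicate 1 they were 8 and 25, where 1.11 and 2.75% of all genes were called, and without S_12h replicate 2 they were 12 and 22, where 1.25 and 2.48% were. Leaving out any 1 S_0h library gave 5 to 13 calls in S_12h against S_0h, where 1.07 to 2.31% of all genes were called. Leaving out WT_12h replicate 1, 2 or 3 gave 15, 8 and 128 in S_12h against WT_12h, where 2.08, 1.66 and 10.9% of all genes were. In A_12h against WT_12h the count was 6 without A_12h replicate 3, the only high library there, where 3.98% of all genes were called. It was 42 and 40 without A_12h replicate 1 or 2, where 2.21 and 2.14% of all genes were called. Without WT_12h replicate 1, 2 or 3 it was 0, 0 and 43, where 0.531, 0.403 and 8.01% of all genes were. In A_12h against A_0h it was 44 without A_0h replicate 3, where 24% of all genes were called, and 0 when any other single library of A_12h or A_0h was left out.

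In a fit of the 12 libraries that have a library of their own label among their 2 nearest, an alternative chosen after seeing the data, all 329 genes were called higher in S_12h (then replicates 1 and 2) than in S_0h and than in WT_12h, where 54.9 and 58.5% of all genes were called. Of all genes, 27.6% were higher and 27.3% lower in S_12h than in S_0h, and 30.1% were higher and 28.4% lower in S_12h than in WT_12h. In that fit A_12h has replicates 1 and 2 left. There, A_12h against WT_12h holds none of the 3 libraries, and 213 genes were called higher and 25 lower in A_12h, where 47% of all genes were called, 25.8% higher and 21.2% lower. A_0h against WT_0h gave 131 higher and 57 lower in A_0h, where 49.2% of all genes were called, 24.8% higher and 24.4% lower. A_12h against A_0h gave 154 higher and 57 lower in A_12h, where 59.5% of all genes were called, 30.9% higher and 28.6% lower. S_0h against WT_0h gave 91 higher and 36 lower in S_0h, where 20.1% of all genes were called, 9.81% higher and 10.3% lower. WT_12h against WT_0h gave 59 higher and 74 lower in WT_12h, where 29.2% of all genes were called, 13.6% higher and 15.6% lower. Each group then has 2 libraries chosen for their likeness, which lowers the spread by construction.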

How the data were processed

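The values are whole-number read counts per gene in 1 table, as deposited by the authors and not normalised. HISAT2 and featureCounts with the build B73 RefGen_v4 are named per the submitters' processing notes. Their versions, the strand setting and any filter are not given, so overlapping and antisense genes are uncertain. The 18 columns matched the sample titles. CPM is 1000000 times the count divided by the column sum, and 3 counts were 0.0334 to 0.0846 CPM (counting error only). The table was tested with edgeR 4.0.16 in R 4.3.3: filterByExpr by group (20945 genes kept, 7779 removed), TMM factors (0.975 to 1.02), 1 mean per labelled group over 18 libraries and a robust quasi-likelihood test with 12 residual degrees of freedom, tested on simulated data. The SE of a log2 fold change was taken as its size over the square root of F. Alternatives were DESeq2 1.42.0, RLE scaling, other filters, a replicate block and leaving out libraries. Members and lists were chosen with earlier results of these data known. Named genes are the 10 largest ratios, the 10 highest levels, those nearest the thresholds, called genes in contrasts without the 3 libraries, and the 3 largest gaps among the 15.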

Additional observations from a re-analysis of the deposited data

How the results depend on the processing

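The number of genes was 319 with CPM on TMM-scaled library sizes, 401 and 266 with a lowest level of at least 1 and 10 CPM, 629 and 106 with a ratio of at least 1.5 and 4, and 329 with rows of any ID. Leaving out 1 library gave 329 to 350, and by the form of the rule it can only add genes. Of the contrasts, RLE scaling and the stricter filter moved no count of called genes by over 1.5 times. DESeq2 called 239 in S_12h against S_0h, 2 in A_12h against A_0h, 16 in A_0h against WT_0h and 146 in A_12h against WT_12h, where it called 18.1, 0.754, 11 and 15% of all genes, and gave no adjusted p for 46 of the 329. The 16 genes are 4.86% of the set. That fit holds the 3 libraries, which widen the spread of these genes, so this share is not read against that of all genes. With no low-count filter the count was 0 in A_0h against WT_0h, where 2.14% of all genes were called. The replicate block gave 57 in S_12h against S_0h, 112 in S_12h against WT_12h, 0 in A_0h against WT_0h and 10 in A_12h against WT_12h (3.04%). There 3.77, 6.13, 1.36 and 2.75% of all genes were called, and no other count changed by over 1.5 times. Same-numbered libraries of 2 groups had correlations of deviations from -0.258 to 0.441, over 0.1 for every number in 0 of the 7 contrasts. In each group 1 library is nearest to another group and weighs on these deviations, so this check cannot settle whether the numbers pair libraries. Without the 3 libraries the count was 59 in A_0h against WT_0h and 41 in A_12h against WT_12h. The shares of all genes called there were 10.6 and 6.67%. With the 6 libraries left out whose nearest libraries carry other labels, it was 329 in S_12h against S_0h and against WT_12h, 238 in A_12h against WT_12h, 211 in A_12h against A_0h, 188 in A_0h against WT_0h, 127 in S_0h against WT_0h and 133 in WT_12h against WT_0h. The shares of all genes called were, in the same order, 54.9, 58.5, 47, 59.5, 49.2, 20.1 and 29.2%. Leaving out 1 library gave 5 to 309 in S_12h against S_0h, where 1.07 to 28.6% of all genes were called. It gave 8 to 307 in S_12h against WT_12h, where 1.66 to 28.2% were, and 0 to 44 in A_12h against A_0h, where 0 to 24% were. It gave 0 to 6 in A_0h against WT_0h, where 0.746 to 14.5% were, and 0 to 43 in A_12h against WT_12h, where 0.403 to 8.01% were. The 6 genes, called without A_0h replicate 3, are 1.82% of the set, where 14.5% of all genes were called. That fit also holds the 3 libraries, so nothing is read from the lower share. In S_0h against WT_0h and WT_12h against WT_0h, leaving out 1 library gave 0 to 0, where 0% of all genes were called. The cause was not tested. Genes under 1 CPM in most libraries rest on few counts there, which limits their ratios.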
